A study of Mus musculus with 7 samples.

Results

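The acinar granule, membrane and inhibitor genes are 7 genes that exocrine cells of the pancreas transcribe beside the digestive enzymes: Gp2, Cuzd1, Dmbt1, Pdia2, Aqp12, Spink1 and Serpini2. They were taken by name, as 7 of the 33864 genes in the 3 deposited count tables, and all 7 have a row in every table. The choice was made with earlier results of these data known, so counts of the 7 beside shares of all genes are a description. Acinar cells make digestive enzymes as inactive precursors, fold them in the endoplasmic reticulum, pack them into zymogen granules and release them at the apical membrane. Gp2 encodes the main glycoprotein of the granule membrane, Cuzd1 encodes a granule protein with CUB and zona pellucida-like domains, and Dmbt1 encodes a secreted glycoprotein with scavenger receptor cysteine-rich domains. Pdia2 is a disulfide isomerase of the pancreatic endoplasmic reticulum, and Aqp12 is an intracellular water channel. Spink1 encodes a trypsin inhibitor that is secreted with the enzymes, and Serpini2 encodes a pancreatic member of the serpin family of protease inhibitors.

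The genes were followed in 7 pancreata of C57BL/6 mice aged 2 months, dissociated and sequenced as 1 single-cell library each. WT mice (n = 2) and i4F mice (n = 3) received doxycycline in the drinking water at 1 mg/ml for 7 days. The i4F mice, of genotype i4F-B on a C57BL/6J.Ola.Hsd background, are heterozygous for the 4 reprogramming factors Oct4, Sox2, Klf4 and c-Myc, placed in Pparg under doxycycline control, and for the rtTA transactivator in Rosa26, so that induction is not restricted to acinar cells. The third group (n = 2) had WT animals injected with caerulein, an analogue of cholecystokinin that provokes pancreatitis, at 100 µg/kg with 7 injections a day on 2 days. The sample records give no doxycycline for the caerulein mice and no caerulein for the WT and i4F mice. Caerulein and the lack of doxycycline thus cannot be told apart in any comparison of the caerulein mice with another group. The samples are called WT 1 and 2, i4F 1 to 3, and caerulein 1 and 2, and each is a separate animal.

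Libraries held 15469018 to 64784216 unique molecular identifiers (UMIs, each 1 captured mRNA molecule) over 4327 to 15138 cells. Cells carrying acinar labels numbered 853 and 917 in WT, 594, 807 and 2130 in i4F, and 1542 and 1094 in caerulein mice. Their median depth was 431 and 502 UMIs in WT, 1933, 2020 and 606 UMIs in i4F, and 2213.5 and 1322.5 UMIs in caerulein mice. Of 11 markers chosen to check the acinar label, 2 are listed in the tables, the transcription factor genes Ptf1a and Bhlha15, and both had UMIs in the acinar cells of every mouse. Of 32 digestive enzyme genes, 21 were not analysed here because no table lists them. A relative level, the UMI depth of a cell and thinning to an equal depth therefore refer to the genes that are listed. rtTA, the label check, had 2571, 1824 and 722 UMIs in the i4F libraries and 1 to 16 UMIs in the others. The library labelled i4F 3 stood apart from the other i4F libraries in acinar depth, in the number of acinar cells and in the levels below, and results are given with and without it. Between 3 and 39 cell barcodes were shared by any pair of libraries, and 366 of 58107 barcodes occurred in more than 1 library.

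The genes were placed on GRCm38 (GENCODE M21 annotation). Gp2 spans chr7:119442537-119459285 and Cuzd1 chr7:131308554-131322292, both on the minus strand, and Dmbt1 spans chr7:131032053-131121630 on the plus strand, 186923 bases from Cuzd1. Pdia2 is at chr17:26195999-26199087 (minus strand), Aqp12 at chr1:93006334-93012269 (plus strand) and Serpini2 at chr3:75242370-75270078 (minus strand). All 7 are annotated as protein-coding. Dmbt1 and Cuzd1 lie within the annotated span of Fgfr2 but share no exon with it.

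Promoter windows were searched for 5 of the 7 genes in the RefSeq promoter table (GRCm38.p6). The table has no entry for Dmbt1, and Spink1 was left out of the search. The 250 bases before the start of 3 of the 5 are shown, because these windows hold no annotated exon. For all 5 genes searched, the CPM in acinar cells of every treated mouse lay below those of both WT mice. Capitals mark CACCTG, the E-box type bound by the acinar factor PTF1 (reverse complement CAGGTG), the GATA motif AGATAA (reverse complement TTATCT) and the TATA box TATAAA (reverse complement TTTATA), each searched on both strands. The windows are chr1:93006084-93006333 (plus strand) for Aqp12, chr3:75270079-75270328 (minus strand) for Serpini2 and chr7:131322293-131322542 (minus strand) for Cuzd1, written 5′ to 3′.
Aqp12: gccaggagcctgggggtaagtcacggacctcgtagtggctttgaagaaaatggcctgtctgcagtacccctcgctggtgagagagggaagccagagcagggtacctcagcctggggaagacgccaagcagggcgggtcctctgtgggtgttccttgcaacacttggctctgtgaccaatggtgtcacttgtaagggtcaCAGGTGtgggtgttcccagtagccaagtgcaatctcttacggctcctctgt
Serpini2: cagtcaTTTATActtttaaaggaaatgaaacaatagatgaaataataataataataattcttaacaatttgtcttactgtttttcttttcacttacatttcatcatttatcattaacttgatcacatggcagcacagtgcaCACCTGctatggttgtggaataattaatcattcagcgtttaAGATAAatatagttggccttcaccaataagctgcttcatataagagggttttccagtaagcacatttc
Cuzd1: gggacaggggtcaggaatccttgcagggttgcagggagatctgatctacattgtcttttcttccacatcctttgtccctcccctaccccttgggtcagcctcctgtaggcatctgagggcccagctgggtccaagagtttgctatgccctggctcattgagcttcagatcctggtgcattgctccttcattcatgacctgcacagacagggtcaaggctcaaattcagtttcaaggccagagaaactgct
CACCTG was found in 3 of the 5 windows (Pdia2, Aqp12 and Serpini2), against 17.3% of 32536 promoters of the same length. AGATAA was found in 3 of 5 (Gp2, Pdia2 and Serpini2) against 9.97% of promoters, and TATAAA in 2 of 5 (Gp2 and Serpini2) against 12.3%. In Gp2 the TATA box began 32 bases before the start, and in Serpini2 its reverse complement began 244 bases before it. The general E-box CANNTG, which contains CACCTG, was in 5 of 5 windows and in 66.2% of promoters. TTTCCC, the RBPJ part of the PTF1 site, and AAGGTCA, the motif of NR5A2, were in none of the 5 windows, against 22.0% and 4.09% of promoters. These letters in these windows are a description and not evidence of binding.

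In WT mice the 7 genes together supplied 5.06% and 5.85% of all UMIs of acinar cells. The same sum was 0.745%, 1.17% and 3.78% in i4F mice, and 0.840% and 0.748% in caerulein mice. Every treated mouse was thus below both WT mice, and i4F 3 lay nearest to them. Levels of single genes are given next as UMIs per 1000000 UMIs of the acinar cells of a mouse (CPM). The tests further scaled these totals by TMM factors, from 0.697 in i4F 3 to 1.35 in caerulein 2 for acinar cells, so that a fitted log2 difference is not the ratio of the printed CPM. By library size alone the median of all genes would lie at 0.32 in place of 0.14 for i4F and at 0.69 in place of 0.10 for caerulein against WT, and that of the 7 at -1.98 and -4.26.

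The granule genes Gp2 and Cuzd1 had nearly the same course. Gp2 was at 15048 and 15557 CPM in WT, at 1289, 3039 and 8848 CPM in i4F, and at 899 and 696 CPM in caerulein mice. Cuzd1 was at 5861 and 6480 CPM in WT, at 515, 1067 and 3124 CPM in i4F, and at 392 and 368 CPM in caerulein mice. For both genes the 3 groups did not overlap, with WT highest and caerulein lowest. The group means of Gp2 were 15303 ± 360 CPM in WT (SD, n = 2), 4392 ± 3957 CPM in i4F (SD, n = 3) and 798 ± 144 CPM in caerulein mice (SD, n = 2).

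Dmbt1, the secreted scavenger receptor-type glycoprotein, took another course. It was at 6800 and 4472 CPM in WT, at 2359, 3929 and 12444 CPM in i4F, and at 1798 and 2321 CPM in caerulein mice. The i4F mice lay on both sides of WT, with i4F 3 the highest of all 7 mice, and the caerulein mice were below the other 5.

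Pdia2, the disulfide isomerase, was at 10446 and 15095 CPM in WT, at 159, 462 and 3843 CPM in i4F, and at 163 and 106 CPM in caerulein mice. i4F 1 thus lay at the level of the caerulein mice, while i4F 3 stayed between them and WT. Aqp12, the water channel, was at 1903 and 2187 CPM in WT, at 32.6, 117 and 726 CPM in i4F, and at 62.8 and 49.97 CPM in caerulein mice. The i4F and caerulein mice overlapped for both genes, and no i4F or caerulein mouse reached WT.

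The 2 inhibitors stood far apart in caerulein mice. Spink1 (chr18:43728082-43737557, minus strand) was at 7110 and 10699 CPM in WT, at 3025, 2959 and 7372 CPM in i4F, and at 5067 and 3927 CPM in caerulein mice, so that its i4F mice overlapped both other groups. Serpini2 was at 3404 and 3973 CPM in WT, at 74.8, 138 and 1438 CPM in i4F, and at 17.3 and 11.98 CPM in caerulein mice. The mean of Serpini2 in caerulein mice was 252-fold below WT, whereas that of Spink1 was 1.98-fold below WT. The caerulein values of Serpini2 rest on 102 and 29 UMIs.

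**Figure D1:**
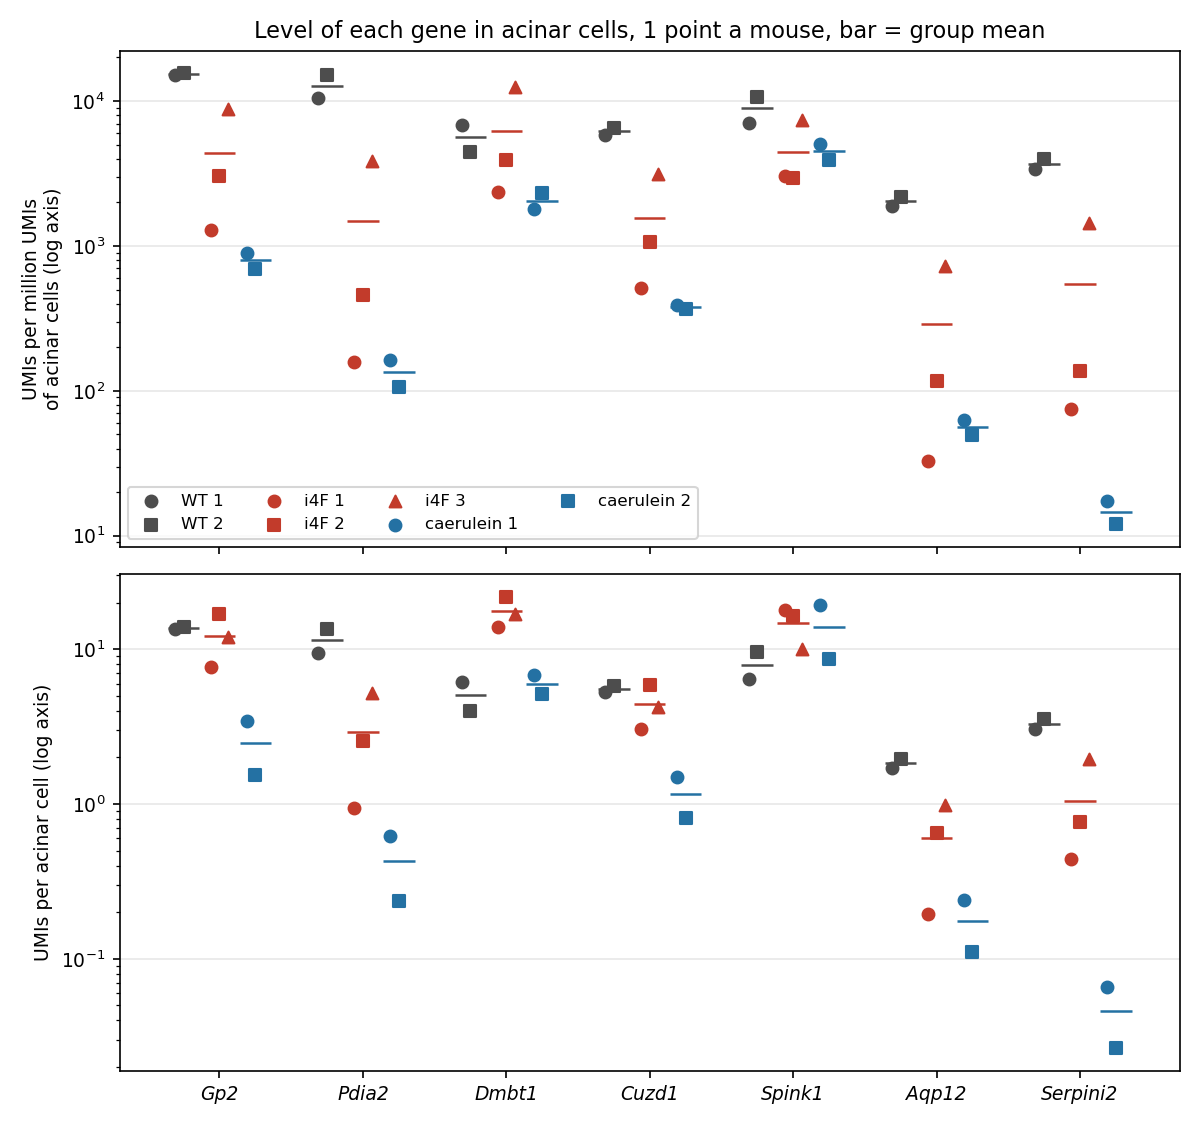
Level of each of the 7 genes in acinar cells, with 1 point per mouse and a bar at the group mean, as CPM (upper panel) and as UMIs per acinar cell (lower panel), both on log axes. On the upper scale both caerulein mice lie below both WT mice for all 7 genes, whereas on the lower scale the 3 i4F mice lie above WT for Dmbt1 and Spink1.

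For i4F against WT, the groups did not overlap for 5 of 7 genes, all lower in i4F (Gp2, Cuzd1, Pdia2, Aqp12 and Serpini2), against 17.9% of the 11134 genes tested. None of the 7 passed the test over all 7 mice (edgeR, adjusted p under 0.05), as 0.0808% of the genes tested did, 9 of 11134, and 2796 genes had an unadjusted p under 0.05. The largest log2 differences were those of Pdia2 at -2.89 (SE 1.26, adjusted p = 0.20) and Aqp12 at -2.62 (SE 1.16, adjusted p = 0.21), and that of Dmbt1 was 0.25 (SE 0.84, adjusted p = 0.88). The median over the 7 was -1.88, beside 0.14 over all genes tested. None of the 7 passed without i4F 1 or without i4F 2, where 0 genes passed and 1854 and 1743 had an unadjusted p under 0.05 (edgeR). Without i4F 3, all 7 were lower and passed, against 15.4% of genes called lower. Serpini2 was then at -5.49 (SE 0.39, adjusted p = 2.5e-05), Pdia2 at -5.75 (SE 0.56) and Gp2 at -3.21 (SE 0.41), and Dmbt1 turned to -1.22 (SE 0.32, adjusted p = 0.017). Where i4F 3 is kept, its distance from i4F 1 and 2 enters the spread that all 3 groups share. As i4F 3 was set apart partly by the levels of these same genes, lower values and calls without it are partly built in.

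For caerulein against WT, all 7 genes were lower in both caerulein mice than in both WT mice, against 14.2% of genes. The log2 differences were -8.54 for Serpini2 (SE 1.86, adjusted p = 0.075), -7.14 for Pdia2 (SE 1.79, adjusted p = 0.090), -5.76 for Aqp12 (SE 1.56, adjusted p = 0.097), -4.84 for Gp2 (SE 1.13, adjusted p = 0.083) and -4.61 for Cuzd1 (SE 1.06, adjusted p = 0.081). Dmbt1 was at -2.05 (adjusted p = 0.25) and Spink1 at -1.57 (adjusted p = 0.27). None passed the edgeR test over all 7 mice, as 0.0359% of genes did, 4 of 11134, with 2443 genes at an unadjusted p under 0.05. The median over the 7 was -4.84, beside 0.10 over all genes. Without i4F 3, which is in neither group but enters the shared spread, all 7 passed as lower, against 11% of genes. Fitted on the WT and caerulein mice alone, all 7 again passed as lower, against 13.9% of 8511 genes. Without i4F 1 in place of i4F 3, 5 of the 7 passed as lower, against 1.81% of genes. None of the 7 passed without i4F 2 or with the library name series as a term. In these 2 fits 0 genes passed, with 2294 and 1692 at an unadjusted p under 0.05 (edgeR). Nor did any of the 7 pass by library size alone or with cells of at least 500 genes, as 0.0180% and 0.153% of genes did. Leaving out a WT or caerulein mouse leaves 1 mouse in its group. The median of the 7 was then -4.83 without WT 1, -4.76 without WT 2, -5.10 without caerulein 1 and -4.58 without caerulein 2. Alternatives under which some of the 7 passed are given further below.

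For i4F against caerulein, whose levels come from the treated mice alone while WT mice enter the spread of the test, Gp2, Dmbt1, Cuzd1 and Serpini2 were higher in all 3 i4F mice than in both caerulein mice, 4 of 7 against 6.8% of genes. None of the 7 passed the test (edgeR, adjusted p between 0.12 and 0.68), as 0.126% of genes did, 14 of 11134, with 2089 genes at an unadjusted p under 0.05. Without WT 1 or WT 2, 0 genes passed, with 2223 and 2215 at an unadjusted p under 0.05, and with i4F and caerulein mice alone 0 passed, with 2109. DESeq2 called 604 over all mice. The log2 difference was 6.01 for Serpini2 (SE 1.64) and 0.60 for Spink1 (SE 0.69), with a median of 3.14 beside 0.11 over all genes. Without i4F 3, Gp2, Cuzd1 and Serpini2 passed as higher in i4F, against 13.0% of genes, at 1.64, 1.27 and 3.03, and Spink1 was at -0.37. The WT mice are common to both comparisons against WT, which are therefore not independent of each other.

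**Figure D2:**
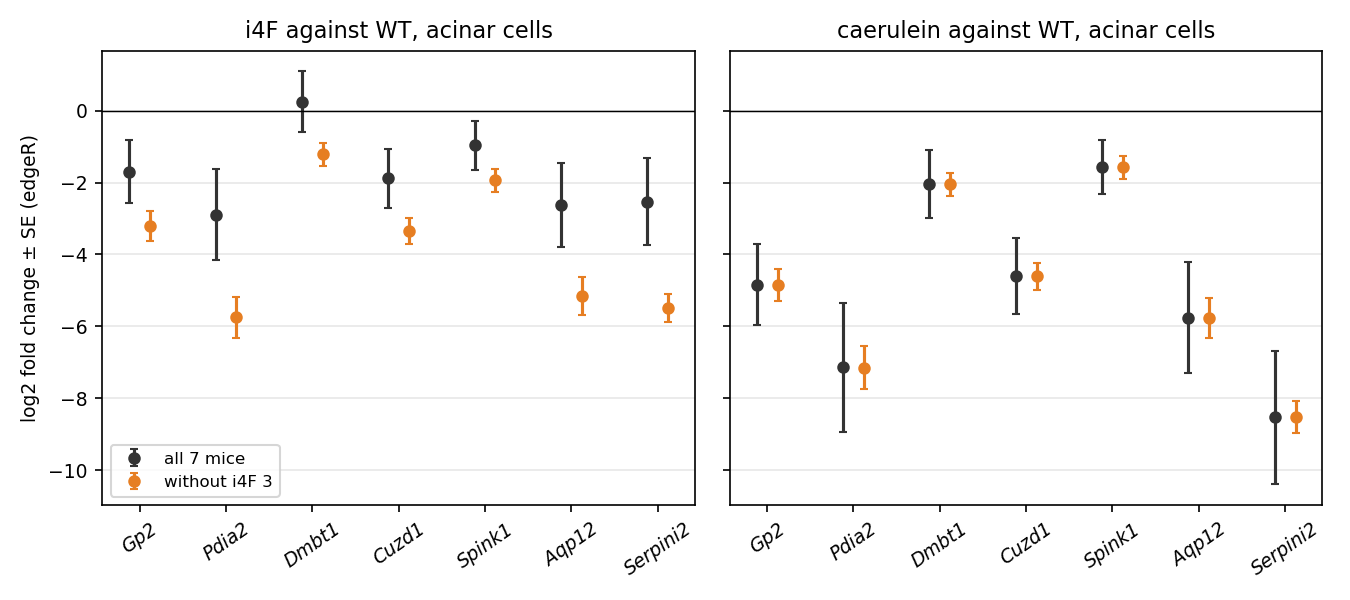
Fitted log2 fold change of each gene in acinar cells with its SE, for i4F against WT (left) and caerulein against WT (right), over all 7 mice and without i4F 3. Leaving out i4F 3 moves the values of i4F against WT down, Dmbt1 from 0.25 to -1.22, and shortens the error bars of both comparisons.

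Library names form 2 series, 1 with WT 1 and the 3 i4F mice and 1 with WT 2 and the caerulein mice. Within the first, Gp2, Cuzd1, Pdia2, Aqp12 and Serpini2 were lower in every i4F mouse than in WT 1, while i4F 3 exceeded WT 1 for Dmbt1 and Spink1. Within the second, all 7 genes were lower in both caerulein mice than in WT 2. Each series holds 1 WT mouse, so this order is easier to meet than one against both WT mice. Its share over all genes was not counted, and these orders are a description. The lower orders follow from those against both WT mice given above, so they are no separate check on the name series.

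Other transcripts moved along with these levels. The 8 ductal markers (Krt19, Krt7, Krt18, Krt8, Sox9, Spp1, Cftr and Epcam) summed to 2473 and 1618 CPM in acinar cells of WT, to 11724, 9374 and 3742 CPM in i4F, and to 13129 and 14695 CPM in caerulein mice, with Cftr at 0 in both WT mice. Most of each sum was Krt8 and Krt18. Krt8 was at 799 and 532, at 4818, 4636 and 1554, and at 4278 and 5125 CPM. Krt18 was at 1396 and 828, at 3341, 1798 and 1369, and at 6306 and 6884 CPM. Krt19 was at 61.2 and 68.5, at 2109, 2109 and 517, and at 921 and 1135 CPM. The 5 macrophage markers summed to 19.5 and 64.8 CPM, to 594, 331 and 147 CPM, and to 1707 and 945 CPM in the same order. The 3 neutrophil markers summed to 1.30 and 1.22 CPM, to 62.9, 136 and 13.2 CPM, and to 211 and 85.1 CPM. These 3 sums, like the median depth per acinar cell, were lower in i4F 3 than in i4F 1 and 2. The 2 mesothelial markers summed to 6.52 and 1.22 CPM in WT, to 243, 78.1 and 6.93 CPM in i4F, and to 1.02 and 2.89 CPM in caerulein mice. The 4 endocrine markers listed went the other way, from 579 and 823 CPM in WT to 7.93, 16.8 and 139 CPM in i4F and to 5.94 and 31.8 CPM in caerulein mice. The 4 endothelial markers lay at 56.0 and 50.2 CPM in WT and at 6.23 to 23.2 CPM in the treated mice. The 5 stellate markers summed to 566 and 363 CPM in WT, to 582, 367 and 221 CPM in i4F, and to 758 and 877 CPM in caerulein mice, the highest of the 3 groups. In i4F 3 the T and NK cell markers were at 35.3 CPM, against 4.89 CPM or less in the other 6 mice, and the B cell markers at 21.1 CPM, against 2.55 CPM or less. Red blood cell markers were at 11.3 CPM in i4F 1 and at 1.12 CPM or less in the others. The acinar markers Ptf1a and Bhlha15 summed to 211 and 159 CPM in WT, to 15.9, 16.8 and 107 CPM in i4F, and to 87.2 and 42.1 CPM in caerulein mice. The median mitochondrial share of acinar cells was 0.973% and 0.415% in WT, 0.362%, 0.394% and 0.427% in i4F, and 0.112% and 0.147% in caerulein mice. The part of these differences in the levels of the 7 genes was not tested.

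Because acinar cells of treated mice carried more UMIs of the listed genes each, the level per cell was examined too. Pdia2 had 9.40 and 13.5 UMIs per acinar cell in WT, 0.943, 2.56 and 5.21 in i4F, and 0.621 and 0.235 in caerulein mice. Serpini2 had 3.06 and 3.54 UMIs per cell in WT, 0.444, 0.763 and 1.95 in i4F, and 0.066 and 0.027 in caerulein mice. Aqp12 had 1.71 and 1.95, then 0.194, 0.647 and 0.984, and then 0.240 and 0.111 UMIs per cell. These 3 genes were lower in every i4F mouse than in WT on this scale as well, against 1.46% of genes.

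Gp2 and Cuzd1 overlapped between WT and i4F per cell, with 13.5 and 13.9 against 7.66, 16.8 and 11.99 UMIs for Gp2, and were lower in both caerulein mice, at 3.44 and 1.54 UMIs for Gp2. With them, 5 of 7 genes were lower per cell in both caerulein mice, against 2.48% of genes. Dmbt1 had 6.12 and 3.99 UMIs per cell in WT, 14.0, 21.8 and 16.9 in i4F, and 6.87 and 5.14 in caerulein mice. Spink1 had 6.40 and 9.54, then 18.0, 16.4 and 9.99, and then 19.4 and 8.69 UMIs per cell. Both were higher per cell in all 3 i4F mice than in WT, 2 of 7 against 55.3% of genes, and for both the caerulein mice overlapped WT. Between the treatments, Gp2, Pdia2, Dmbt1, Cuzd1 and Serpini2 were higher per cell in all 3 i4F mice than in both caerulein mice, 5 of 7 against 2.97% of genes. Scaled per cell, the median log2 difference of all genes was 2.66 for i4F and 2.40 for caerulein against WT, and the median of the 7 was -0.33 and -2.46. None of the 7 passed for i4F against WT on this scale (edgeR), as 38.2% of genes did, with 6349 at an unadjusted p under 0.05, and 2 of 7 passed as lower for caerulein against WT, against 0.269% of genes.

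The make-up of the 7 genes' summed UMIs does not depend on how libraries are scaled to each other. Dmbt1 held 13.4% and 7.65% of that sum in acinar cells of WT, 31.6%, 33.5% and 32.9% in i4F, and 21.4% and 31.0% in caerulein mice. In the CPM of the other genes, but not of Dmbt1, i4F 3 was the i4F mouse nearest to WT. Its share of Dmbt1 lay between those of i4F 1 and 2. The mean share of the i4F mice was 32.7% ± 0.970 (SD, n = 3), beside 10.5% ± 4.10 (SD, n = 2) for WT. The difference was 22.2 percentage points (p = 0.1 by an exact permutation test, two-sided, which cannot give less with 3 mice and 2).

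Spink1 held 14.1% and 18.3% of the sum in WT, 40.6%, 25.3% and 19.5% in i4F, and 60.3% and 52.5% in caerulein mice, where it was the larger part. Pdia2 went the other way, with 20.7% and 25.8% in WT, 2.13%, 3.95% and 10.2% in i4F, and 1.94% and 1.42% in caerulein mice. Serpini2 held 6.73% and 6.80% in WT, 1.00%, 1.18% and 3.80% in i4F, and 0.206% and 0.160% in caerulein mice. In both treatments the shares of Dmbt1 and Spink1 were above WT in every mouse and those of the other 5 below WT in every mouse, with exact permutation p of 0.1 to 0.2 for i4F and of 0.333 for caerulein, where 2 mice and 2 can give no less. Shares of 1 sum are bound to each other, so that they show unequal change and not which gene changed.

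**Figure D3:**
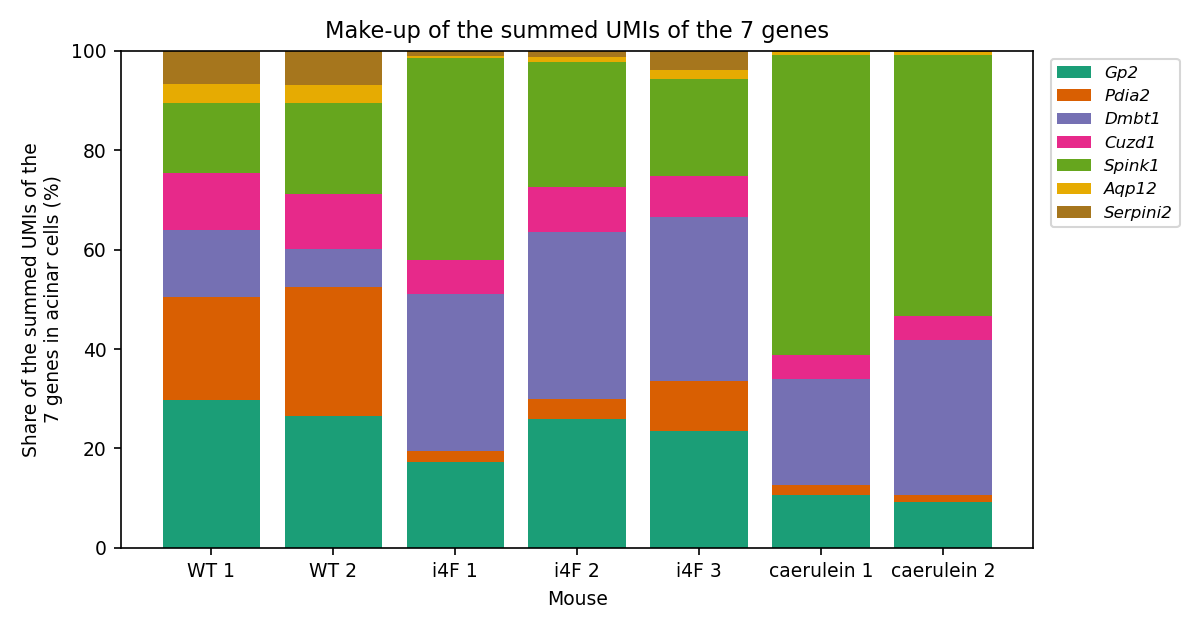
Make-up of the summed UMIs of the 7 genes in acinar cells, 1 bar per mouse, in percent of the sum. Dmbt1 holds 31.6% to 33.5% in the 3 i4F mice and Spink1 52.5% and 60.3% in the caerulein mice.

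Single cells showed how widely the genes were detected. At least 5 of the 7 genes had a UMI in 86.6% and 87.4% of acinar cells in WT, in 34.0%, 58.6% and 80.8% in i4F, and in 28.0% and 12.3% in caerulein mice. No gene had a UMI in 0.352% and 0.872% of acinar cells of WT, in 14.6%, 9.42% and 0.423% of i4F, and in 0.649% and 1.19% of caerulein mice. Cells without any of the 7 genes were thus more frequent in i4F 1 and 2 than in the other 5 mice, whereas most caerulein cells had 1 to 4 of them. The cells of WT were the shallowest by median UMIs of the listed genes.

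The shares per gene were compared after thinning each cell to 1000 UMIs, which kept 152 and 209 cells in WT, 382, 572 and 724 in i4F, and 1139 and 652 in caerulein mice. Serpini2 had a UMI in 80.3% and 82.3% of the thinned cells of WT, in 13.4%, 21.5% and 69.8% of i4F, and in 2.19% and 2.15% of caerulein mice. Unthinned, its shares were 75.6% and 78.6%, 19.0%, 35.4% and 63.8%, and 5.58% and 2.29%. Spink1 had a UMI in 94.1% and 94.3% of the thinned cells of WT, in 70.9%, 76.6% and 96.8% of i4F, and in 94.6% and 90.5% of caerulein mice. Thinned to 300 UMIs, which kept 611 and 761 cells of WT, 529, 762 and 1961 of i4F, and 1489 and 1054 of caerulein mice, its shares were 85.3% and 89.0%, 56.7%, 62.9% and 85.0%, and 76.2% and 69.0%. At that depth both caerulein mice were thus below both WT mice for Spink1, which was not so at 1000 UMIs. Serpini2 was then in 60.7% and 61.6% of cells of WT, in 6.05%, 9.06% and 38.7% of i4F, and in 1.007% and 0.285% of caerulein mice. As a measure of free RNA, endothelial cells, which should lack Serpini2, had a UMI of it in 27.1% and 16.3% of cells in WT, in 0.322%, 0.895% and 17.9% in i4F mice and in 0 of 560 and 0 of 276 cells in caerulein mice, which allows shares of up to 0.536% and 1.09%. These shares are unthinned, at median depths of 601 to 1483 UMIs.

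The acinar cells of i4F mice bear 2 labels, Acinar_1 with 11, 61 and 2071 cells and Acinar_2 with 583, 746 and 59 cells in i4F 1, 2 and 3. Gp2 was at 2653, 7625 and 9475 CPM under the first label and at 1279, 2903 and 3017 CPM under the second. Dmbt1 was at 3307, 8302 and 13280 CPM under Acinar_1 and at 2352, 3799 and 4670 CPM under Acinar_2. Under Acinar_2, i4F 3 was thus near i4F 2 for both genes, whereas most of its acinar cells bear the other label. Serpini2 was at 38.5, 498 and 1554 CPM under Acinar_1 and at 75.1, 127 and 361 CPM under Acinar_2, lower under the first label in i4F 1, where it holds 11 cells. The labels come from clustering these same cells, so the values are a description.

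Outside acinar cells the 7 genes were detected at low levels in every mouse. Cells of all other labels together held each gene at 0.770% to 2.04% of the acinar level in WT 1 and at 0.717% to 1.47% in WT 2. These ranges were 0.514% to 0.785% in i4F 1, 0.965% to 1.79% in i4F 2, 0.614% to 1.96% in caerulein 1 and 0.640% to 1.71% in caerulein 2. In i4F 3 the range was 3.96% to 7.46%, above that of every other mouse for all 7 genes. At least 1 of the 7 genes had a UMI in all but 7.42% of the non-acinar cells of i4F 3, and none had one in 17.6% and 30.7% of those cells in WT, 84.8% and 66.5% in i4F 1 and 2, and 87.3% and 92.6% in caerulein mice. It is not known whether the counts follow the correction of ambient RNA.

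Ductal cells, which line the ducts that drain acini, were compared with endothelial cells, which should lack the genes. Gp2 was at 128 and 80.2 CPM in ductal cells of WT, at 13.7, 41.9 and 263 CPM in i4F, and at 5.24 and 20.9 CPM in caerulein mice. In endothelial cells of the same mice it was at 334 and 198 CPM, at 18.2, 113 and 761 CPM, and at 15.1 and 6.35 CPM. Ductal cells had UMIs of Gp2 in 44.0% and 27.5% of cells in WT at median depths of 5396 and 4624 UMIs, and endothelial cells in 41.6% and 24.2% at 601 and 1483 UMIs. Of 49 pairs of a gene and a mouse, the ductal level was the higher in 10, and these lay in i4F 1 and the caerulein mice. By UMIs per cell it was the higher in 42 of the 49, with Gp2 at 1.005 and 0.541 UMIs per ductal and at 0.623 and 0.403 UMIs per endothelial cell in WT, so that the order of the 2 classes depends on the scale. The largest by CPM was Dmbt1 in caerulein 2, at 180 CPM in ductal and 25.4 CPM in endothelial cells, where 1 ductal cell held 63.0% of its 146 UMIs and the other 237 gave 67.4 CPM. Serpini2 had no UMI in the 238 ductal cells of caerulein 2, which allows up to 3.69 CPM by counting error alone.

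None of the 7 genes passed the test in ductal cells, where 0.00861% of 11619 genes passed for i4F and 3.53% for caerulein against WT (edgeR, with 2016 and 3563 genes at an unadjusted p under 0.05). The median log2 difference of the 7 was 0.05 for i4F and -3.02 for caerulein, beside -0.03 and -0.07 over all genes. Without i4F 3, 6 of 7 were lower and passed in each comparison, against 12.8% and 16% of genes, and the median for i4F turned to -1.80. None of the 7 passed in either comparison without i4F 1 or without i4F 2. There 1 and 1 of all genes passed for i4F, and 875 and 113 for caerulein. In the same ductal cells the macrophage markers summed to 16.9 and 49.2 CPM in WT, to 596, 359 and 109 CPM in i4F, and to 1034 and 830 CPM in caerulein mice. The neutrophil markers were at 0 in WT, at 128, 132 and 2.89 CPM in i4F, and at 40.3 and 9.84 CPM in caerulein mice. The endocrine markers were at 65.1 and 612 CPM in WT, at 13.7, 11.1 and 46.2 CPM in i4F, and at 4.03 and 3.69 CPM in caerulein mice, and the endothelial markers at 43.5 and 24.8 CPM in WT and at 10.1 to 22.2 CPM in the treated mice. The ductal markers were at 43942 and 40057 CPM in WT, at 54938, 56744 and 39424 CPM in i4F, and at 49879 and 51286 CPM in caerulein mice, and Ptf1a and Bhlha15 together at 4.33 CPM or less in every mouse. Stellate markers reached 1241 CPM in i4F 1 and lay at 160 to 809 CPM in the other mice, mesothelial markers at 4.93 to 14.0 CPM and red blood cell markers at 2.74 CPM or less. In i4F 3 the B cell markers were at 53.4 CPM and the T and NK cell markers at 10.6 CPM, against 2.47 CPM or less for either in the other mice. The part of these differences in the ductal values of the 7 genes was not tested. Free RNA and transcription in ductal cells were not separated, and their parts in these values were not tested.

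**Figure D4:**
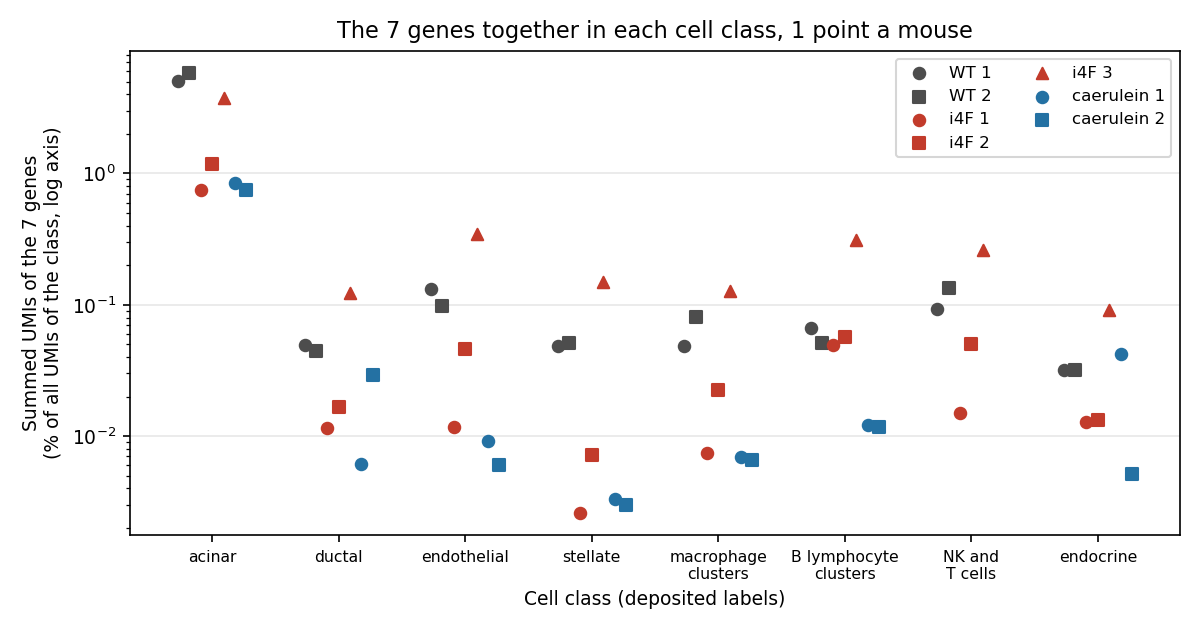
Summed UMIs of the 7 genes as percent of all UMIs of each cell class, log axis, 1 point per mouse. Acinar cells lie above all other classes in every mouse, from 0.745% to 5.85%, and i4F 3 is the highest mouse in each of the other classes shown.

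Summed over all cells, where fewer acinar cells and less RNA per cell cannot be told apart, the 7 genes made up 0.288% and 0.287% of UMIs in WT, 0.0476%, 0.150% and 0.864% in i4F, and 0.0814% and 0.111% in caerulein mice. Acinar labels covered 19.7% and 14.5% of the cells of WT, 6.05%, 9.82% and 28.0% of i4F, and 10.2% and 15.5% of caerulein mice. None of the 7 passed for i4F, where 0% of 18340 genes passed and 6383 had an unadjusted p under 0.05, and none for caerulein, where 9.08% passed and 7130 had an unadjusted p under 0.05 (edgeR). The medians of the 7 were 0.30 and -2.64, beside 0.04 and -0.06 over all genes. Without i4F 3 they were -1.53 and -2.65, with 3 and 5 of 7 called lower, against 25.9% and 25% of genes. None of the 7 passed in either comparison without i4F 1 or without i4F 2. There 0 and 0 of all genes passed for i4F, and 1006 and 0 for caerulein.

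Across 92 profiles of a library and a label with at least 20 cells, the 7 genes had correlations from 0.69 (Dmbt1 with Serpini2) to 0.98 (Gp2 with Cuzd1), as Pearson's r of log2(CPM + 10). The profiles share libraries and free RNA, so r is a description. Among genes with at least 100 UMIs, the most similar to their mean was Pnliprp2, a lipase-related protein (r = 0.98), followed by the amylase gene Amy2b, the endoplasmic reticulum protein gene Erp27 and the amylase genes Amy2a5 and Amy1 (r = 0.96 to 0.97). The most similar single genes were Amy2b for Gp2 and Cuzd1 (r = 0.97 each), Pla2g1b for Pdia2 (0.98), Ctrc for Aqp12 (0.97), Amy2a5 for Serpini2 (0.96), Reg3d for Dmbt1 (0.94) and Pnliprp2 for Spink1 (0.93).

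The other lists of the secretory pathway were counted in the same acinar fits. Of 10 digestive enzyme genes tested, none passed in either comparison against WT, with medians of -2.16 for i4F and -4.92 for caerulein. Without i4F 3, 9 of 10 were lower and passed for i4F and 8 of 10 for caerulein. In those fits 15.4% of all genes were called lower and 17.3% higher for i4F, and 11% lower and 8.36% higher for caerulein, and the counts that follow are to be read against these shares. The 18 tested genes of endoplasmic reticulum oxidative folding had medians of -1.45 and -1.54, none passed, and without i4F 3 14 passed as lower in each comparison, with 1 higher for i4F.

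The 18 genes of zymogen granule content and membrane, mostly of the fusion machinery, had medians of -0.35 and -0.65, and none passed. Without i4F 3, 5 were lower and 2 higher for i4F, and 7 lower for caerulein. The 12 other protease inhibitors had medians of 1.18 and 1.04, and none passed. Without i4F 3, 6 were higher and 4 lower for i4F, and 4 higher and 3 lower for caerulein.

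Of 11 acinar receptors and channels, Aqp8, a water channel of the apical membrane, passed as lower in both comparisons against WT. It was at 44.3 and 41.6 CPM in WT, at 1.70, 2.68 and 3.81 CPM in i4F, and at 0.848 and 0.413 CPM in caerulein mice. Its log2 difference was -4.10 for i4F (SE 0.50) and -6.40 for caerulein (SE 0.66), each with an adjusted p of 0.045 (edgeR). The adjusted p ranged from 1.1e-12 to 0.28 for i4F and from 1.8e-17 to 0.39 for caerulein over the alternatives, and the call was lost without WT 1 (0.25 and 0.16), WT 2 (0.28 and 0.22), i4F 2 (0.18 and 0.085), caerulein 1 (0.12 and 0.39) or caerulein 2 (0.12 and 0.31), and for i4F also without i4F 1 (0.11). It was lost as well with the library name series as a term (0.26 and 0.14) and per cell (0.13 and 0.057), where the log2 difference for i4F was -1.95 against -4.10 with TMM scaling. For i4F alone it was also lost when the 2 groups compared were fitted without the rest (0.14) and without cells above the 95th UMI percentile (0.066). The caerulein values rest on 5 and 1 UMIs, and in i4F 3 the level was near that of the other i4F mice. The medians of this list were -1.31 and -1.23, and without i4F 3 8 genes were lower and 2 higher for i4F, and 6 lower for caerulein. The 7 acinar transcription factors had medians of -1.14 and -1.35, with none passing over all mice, and 6 and 4 lower without i4F 3. The 11 ductal and metaplasia genes had medians of 1.57 and 2.23, with none passing over all mice, and without i4F 3 6 were higher and 1 lower for i4F and 8 higher for caerulein.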

How the data were processed

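Single-cell RNA was measured with the 10x Genomics 3′ assay in the pancreas of 7 mice, 1 library per mouse. Per the methods and the submitters' processing notes, the authors used Cell Ranger with GRCm38 (mm10), SoupX against ambient RNA and Seurat, and kept cells with at least 150 genes and at most 5% of mitochondrial UMIs. The values deposited by the authors are raw UMI counts, and the order of this export and SoupX is not stated. Every count was a whole number, and cell sums equalled the deposited totals.

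The 7 genes and the other gene lists were chosen with earlier results of these data known. The genes named are the 7, listed genes past the threshold without overlap between mice (at most 3 per direction), and the most similar genes (1 per gene, 5 for their mean). Cell classes are the labels in the deposited metadata, with clusters of one type joined. Per the methods, WT and i4F cells were clustered separately, and clusters were named by hand from their markers. The acinar cells compared between these groups were thus delimited separately, and the part of this in the levels of the 7 genes was not tested. Doublets were kept, because the methods mention no removal. UMIs were summed per mouse and class, for mice with at least 20 cells, and given as UMIs per 1000000 UMIs of the class (CPM) or per cell. The main test was edgeR's quasi-likelihood test (edgeR 4.0.16, R 4.3.3, two-sided, TMM, filterByExpr, all 7 mice in a fit of 3 groups) with Benjamini-Hochberg adjustment over all genes tested and a threshold of 0.05. SE is the standard error implied by the test statistic. The code was tested on simulated data.

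The alternatives were DESeq2 1.42.0, scaling by library size alone, scaling without the 7 genes and the digestive enzymes, no filter, a replicate block, library name series as a term, fits of the compared groups alone, cells with at least 500 genes, removal of cells above the 95th UMI percentile, and each mouse left out. Scaling per cell, a block with crossed numbers and thinning to 300 UMIs were chosen after seeing the data. Replicate numbers of WT and caerulein mice are not stated to pair the samples. Deviations from the group means correlated over genes at -0.20 in acinar, -0.31 in ductal and -0.37 in all cells. With 2 mice per group these are 1 difference per group, which cannot show whether mice shared a litter, day or batch.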

Additional observations from a re-analysis of the deposited data

How the results depend on the processing

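No gene of the 7 passed in any of the 7 comparisons over all mice, and this count moved with the processing. With DESeq2 it was 3 for caerulein against WT and 2 for i4F against caerulein in acinar cells, against 8.15% and 5.42% of all genes. For caerulein against WT it was 1 in ductal and 2 in all cells, against 9.80% and 29.9%. For i4F against WT it was 0 in acinar, ductal and all cells, against 8.01%, 3.21% and 23.7%. DESeq2 gave no adjusted p for Pdia2 and Serpini2 in acinar cells. Without the filter it was 5, 6 and 6 in the 3 acinar comparisons (i4F against WT, caerulein against WT, i4F against caerulein), against 8.34%, 6.26% and 5.78% of all genes. In ductal cells it was then 1 and 7 (i4F, caerulein, the latter 1 higher and 6 lower), against 5.44% and 10.5%. In all cells it was 0 for i4F and 1 for caerulein, against 6.16% and 8.40%. With WT and caerulein mice alone it was 7 in acinar, 5 in ductal and 5 in all cells, against 23.9%, 28.5% and 46.1% of genes, and without cells above the 95th UMI percentile 5 in acinar cells for caerulein, against 4.84%. Per cell it was 2 for caerulein against WT and 1 for i4F against caerulein in acinar cells, 1 and 6 in ductal cells, and 5 in all cells for caerulein, against 6.51%, 1.85%, 13.1%, 13.4% and 15.0% of genes.

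With a replicate block it was 7, 7 and 3 in acinar, 5 and 6 in ductal and 4 and 5 in all cells, against 29.6%, 16.7% and 19.2%, 19.2% and 23.5%, and 44.4% and 40.5% of all genes. The replicate numbers are not stated to pair the mice, and i4F 3, the sole mouse numbered 3, drops out of the blocked comparison. With the numbers of WT and caerulein mice crossed, 7, 6 and 5 genes passed in acinar, ductal and all cells, against 31.6%, 41.5% and 57.0% of genes. When each mouse was left out in turn, the count ranged from 0 to 7 for i4F against WT and for caerulein against WT and from 0 to 3 for i4F against caerulein in acinar cells, from 0 to 6 in both ductal comparisons, and from 0 to 3 (i4F) and 0 to 5 (caerulein) in all cells. The highest counts were those without i4F 3. There 32.7%, 19.4% and 22.5% of all genes passed in acinar, 26.5% and 32.2% in ductal and 49.8% and 46.4% in all cells. Of all genes, 9, 4 and 14 passed in the acinar comparisons, with 0 to 4256, 0 to 2688 and 0 to 2494 under the alternatives. In ductal cells 1 and 410 passed, with 0 to 2966 and 0 to 5000, and in all cells 0 and 1666, with 0 to 9543 and 0 to 9916.

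In acinar cells the direction reversed for Dmbt1 and Spink1 alone. In ductal cells, i4F against WT, the median of the 7 went from 0.05 to -1.95 with the replicate block and to -1.80 without i4F 3, and in all cells from 0.30 to -1.78 and to -1.53. By library size alone these medians were -0.09 and -0.08. Against the unthinned values, 30 of 42 mean shares of cells, thinned to 1000 or 300 UMIs, moved by at least 1 SD. Dmbt1, i4F against WT, went from 0.25 to -1.23 with the replicate block, to -0.0070 with the library name series as a term and to between -1.22 (without i4F 3) and 0.68 with single mice left out. Spink1, i4F against caerulein, went from 0.60 to -0.016 by library size alone, to -0.37 with the replicate block and to between -0.37 (without i4F 3) and 0.93 with single mice left out. Per cell, Spink1 went from -0.97 to 0.89 for i4F and from -1.57 to 0.82 for caerulein against WT, and Dmbt1 from -2.05 to 0.25 for caerulein. The causes of these reversals were not tested. The other 5 genes kept their direction in the 3 acinar comparisons under every alternative run. Depth limits the shares of cells, since 701 of 853 and 708 of 917 acinar cells of WT fell below 1000 UMIs.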

Other observations

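The ductal keratin gene Krt19 was looked at in acinar cells with few and with many of the 7 genes, a split chosen after seeing the data. In i4F 1, 2 and 3, the 222, 194 and 62 acinar cells with UMIs of at most 2 of the 7 genes held Krt19 at 3678, 3591 and 2737 CPM, and the 202, 473 and 1722 cells with at least 5 of them at 738, 310 and 355 CPM. Krt19 had a UMI in 63.5%, 68.6% and 51.6% of the former cells, at median depths of 589, 1205.5 and 319 UMIs, and in 43.6%, 20.9% and 11.7% of the latter, at 3150, 2189 and 748 UMIs. In caerulein 1 and 2 the levels were nearly alike in both kinds of cells, at 928 and 1175 CPM with at most 2 genes and at 884 and 1148 CPM with at least 5. There Krt19 had a UMI in 48.4% and 54.8% of the former cells, at median depths of 847 and 699 UMIs, and in 78.0% and 82.2% of the latter, at 3981 and 2741 UMIs. In WT 1 and 2, 21 and 33 cells had at most 2 genes and no UMI of Krt19, beside 58.0 and 73.2 CPM in cells with at least 5. Doublets and free RNA were not separated out, and no test was run on this split.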
